A study of Mus musculus with 12 samples.

Results

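Immediate-early genes were followed in the liver of fed and fasted mice, with the zinc-finger transcription factor Egr1 at the centre. The Egr1 probe (A_65_P09588) was chosen by its log2 ratios in the comparison of fasted with fed liver on these arrays, and the other genes were selected by name, among the best known members of the class. Of 17 genes searched, 12 had a probe, which gave 13 probes of 20280 in all (Egr1, Fos, Fosl1, Jun, Junb, Jund, Atf3, Myc, Ier2, Ier3, Ier5 and, with 2 probes, Btg2). Egr2, Egr3, Egr4, Fosb and Fosl2 had no probe under these names.

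Immediate-early genes are transcribed within minutes of a stimulus, without new protein synthesis, when kinase cascades activate transcription factors that already sit in the cell, such as SRF, the Elk proteins and CREB. Their transcripts are short-lived, and many encode transcription factors that pass the signal on to later genes. In liver they are best known for their surge after partial hepatectomy and other injuries, and they also respond to glucagon, stress hormones and the handling of tissue.

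The samples were livers of male FVB mice, 6 weeks old, either fed (0 hours) or deprived of chow for 12, 24 or 72 hours. Fasting animals were housed in metabolic cages and, from 24 hours on, kept warm with an infrared lamp, so that the lamp and a 72 h fast cannot be told apart. Each group had 3 arrays, and each array carried Cy3-labelled RNA pooled from 2 livers against a Cy5-labelled pool of 6 fed livers, which by their numbers were the same 6 animals as on the fed arrays. The dyes were never exchanged. A log2 ratio below is the quantile-normalized sample signal over that reference, so that the fed arrays lie near 0 partly by construction. An SD is between arrays, hence between pools rather than mice, and fewer cells of a type and less RNA per cell cannot be told apart in whole liver.

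A pair of arrays had the lowest sample signal, though 12 h replicate 2 was close to the next array. Sample signal divided by local background had a median of 3.50 on 24 h replicate 3 and 4.72 on 12 h replicate 2, against 5.34 to 10.6 on the others, and both are called low-signal arrays below. The ratios of 24 h replicate 3 and 72 h replicate 3 correlated at -0.31 over 11302 probes, the lowest value of any pair, while the dyes are stated in the methods and are the same for all arrays. With the other arrays of its own group, 12 h replicate 2 correlated at -0.176 and -0.202, and 24 h replicate 3 at -0.158 and -0.245. With each other the low-signal arrays correlated at 0.665. The 12 h and 24 h means below therefore average arrays that disagree. The part of low signal in this was not tested. The spots flagged by the scanner software as outliers, which were set to missing, made up 24.7% of the probes on fed replicate 2 and 14.1% on fed replicate 3. The hepatocyte markers Ttr and Apoa1 were at least 16.2 and 29.4 times the negative-control spots on every array.

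Promoter sequence was available in RefSeq (GRCm38.p6, from 250 bases before to 50 after the start of a gene) for 8 of the 12 genes; Egr1, Ier2, Fosl1 and Myc were not in the table. The windows of Jun and Btg2 are shown because, after all 8 had been searched on both strands, they held the longer motifs. Capitals mark TGACATCA, a variant of the AP-1 site, in the Jun promoter, and in the Btg2 promoter the full CREB site TGACGTCA and, further on, a match to GCGNGGGCG, the Egr1 site.
Jun: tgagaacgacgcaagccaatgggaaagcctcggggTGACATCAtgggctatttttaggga
Btg2: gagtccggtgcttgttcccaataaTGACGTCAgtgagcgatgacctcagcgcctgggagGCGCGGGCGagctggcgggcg
The Jun window is chr4:95052243-95052302 on the minus strand, and its motif starts 45 bases before the gene. The Btg2 window is chr1:134079266-134079345, also on the minus strand, with the motifs starting 166 and 131 bases before the gene. Of the 32851 promoters in the table, 3.62% hold TGACATCA, 1.79% TGACGTCA and 5.55% GCGNGGGCG. The CREB half-site TGACG, which the full site contains, occurs in 4 of the 8 promoters (Btg2, Atf3, Junb and Fos) and in 20.8% of all. Within these windows TGANTCA and the CArG box of SRF were found in 0 of the 8, against 7.81% and 1.63% of all promoters. Sites further from the start of a gene, and any site of Egr1 itself, were not searched.

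Egr1 encodes the transcription factor that gives the family its name. The log2 ratio of its probe was 0.12, 0.04 and -0.21 on the fed arrays. After 12 hours it was 3.29, 3.97 and 1.13, after 24 hours 2.59, 2.58 and 0.28, and after 72 hours 1.02, 1.69 and 1.19. All 9 fasted arrays therefore lay above all 3 fed arrays, while 12 h overlapped with 24 h and 24 h with 72 h. For comparison, all arrays of a fasted group lay above all fed arrays for 6.46%, 6.59% and 9.21% of the probes with complete values at 12, 24 and 72 hours. The group means were -0.02 ± 0.17 (SD, n = 3) in fed liver, 2.80 ± 1.48 at 12 h, 1.82 ± 1.33 at 24 h and 1.30 ± 0.35 at 72 h. The fitted ratio to fed liver was 7.03-fold, 3.57-fold and 2.50-fold, with a standard error of 0.72 on the log2 scale at each time. Since this pattern was the reason to choose the gene, it is a description without a test.

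Egr1 was close to the detection limit in fed liver, as the unnormalized signals show. On the fed arrays its sample signal was 1.24, 1.39 and 1.26 times the median of the 162 negative-control spots. It was 6.06, 1.97 and 1.95 times that median at 12 h, 3.40, 3.56 and 1.17 times at 24 h, and 2.49, 3.75 and 2.28 times at 72 h. The sample signal exceeded the 95th percentile of the negative controls on 12 of 12 arrays, but the reference channel, the denominator of every ratio, stayed at 1.12 to 1.51 times the negative-control median throughout. On 12 h replicate 1 the reference signal of 104 units lay below the 95th percentile of its negative controls, 117 units, so that the ratio of 3.29 there has a denominator not above them. Relative to the negative controls, 12 h replicate 2 had almost the same signal as 12 h replicate 3 but the highest log2 ratio of all, and 24 h replicate 3 was the single fasted array below the fed ones. Both are low-signal arrays.

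**Figure D1:**
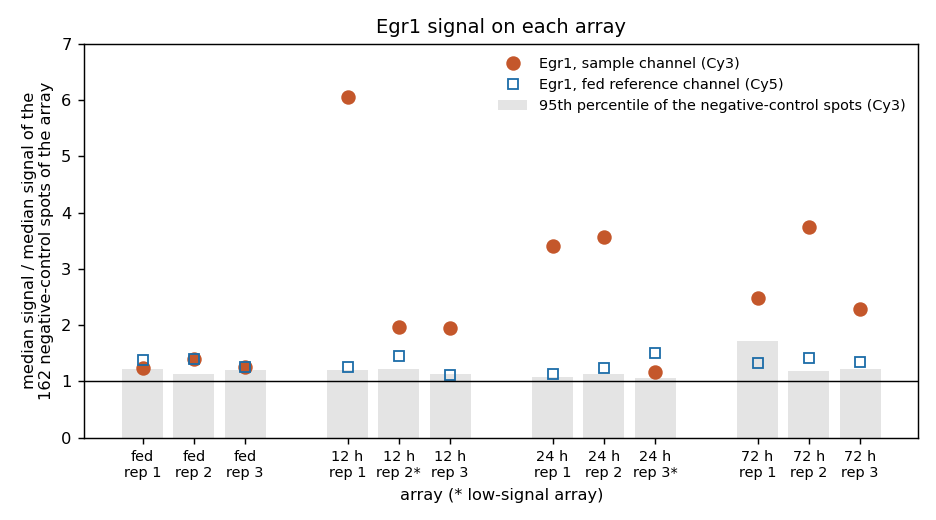
Median signal of the Egr1 probe on each of the 12 arrays, divided by the median of that array's 162 negative-control spots in the same channel (linear axis from 0). Filled circles are the sample (Cy3), open squares the fed reference (Cy5), and grey bars reach the 95th percentile of the negative controls in Cy3; the sample points are 1.24 to 1.39 in fed liver and up to 6.06 after fasting, while the reference stays between 1.12 and 1.51.

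The direction of the Egr1 difference was the same under each normalization, but its size was not, and the order of 12 and 24 hours turned once the pair of low-signal arrays was removed. With loess within each array in place of quantile normalization the log2 difference from fed liver was 2.36, 1.63 and 1.63 at 12, 24 and 72 hours, and with the scanner software's own ratio 3.50, 2.66 and 2.19. On 12 h replicate 2 the ratio was 3.97, 2.46 or 3.75 depending on which of the 3 was used. Without both low-signal arrays the differences were 2.23, 2.61 and 1.32, so that 24 h exceeded 12 h by 0.38, whereas with them it was lower by 0.98 (log2 fold change -0.98). Leaving out 12 h replicate 3 instead raised the 12 h difference to 3.65, and leaving out 24 h replicate 3 alone raised the 24 h difference to 2.61.

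**Figure D2:**
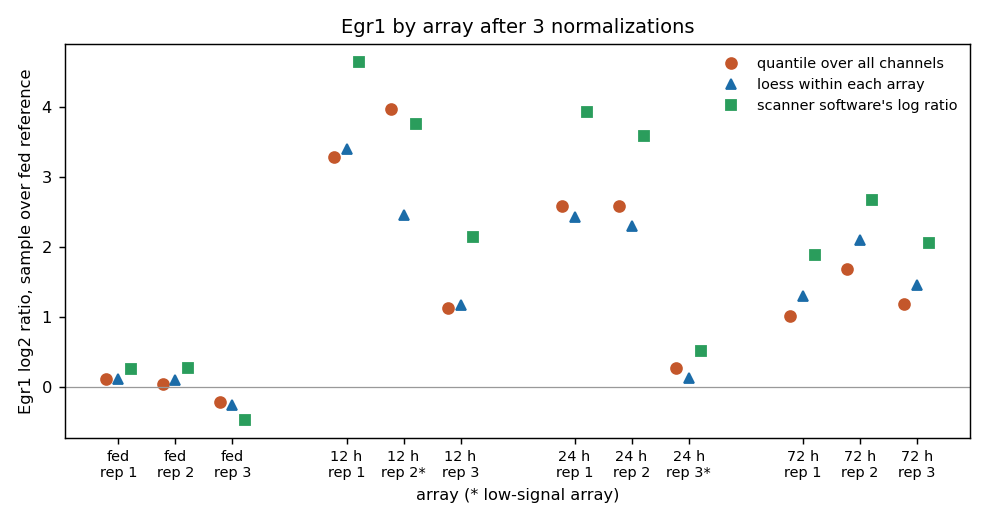
Log2 ratio of Egr1, sample over fed reference, on each of the 12 arrays after quantile normalization over all channels (circles), loess within each array (triangles) and as the scanner software gave it (squares). All 9 fasted arrays are above 0 under each, from 0.13 on 24 h replicate 3 to 4.65 on 12 h replicate 1, and 12 h replicate 2 moves most between quantile (3.97) and loess (2.46).

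Arrays were quantified on 3 days, which only partly crossed the groups. Within the day that holds fed replicates 2 and 3 and all 72 h arrays, Egr1 was higher at 72 h by 1.39. Within the day that holds 1 array each of fed, 12 h and 24 h, both low-signal arrays included, it was higher by 3.85 at 12 h and by 0.16 at 24 h, values without a test. On the remaining day, with 2 arrays each of 12 h and 24 h, the 24 h arrays were higher by 0.38. Fed arrays therefore shared a day with 12 h or 24 h arrays only where both low-signal arrays lay. At 12 h and 24 h a fit with the day as a block leans on these arrays and fed replicate 1. The part of the day in the differences was not tested beyond these values.

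None of the immediate-early probes other than Egr1, which was not tested, passed at any time. To pass, a probe needed a change of at least 1.4-fold and, in limma's moderated test, an adjusted p (Benjamini-Hochberg, over all probes) under 0.05. Of the 12 other probes 0 passed after 12, 24 and 72 hours, and of all probes tested 0.0101%, 0.00505% and 0.00997% did, which is at most 2 probes, the metallothioneins Mt1 and Mt2. The smallest adjusted p among the 12 probes was 0.957, 1.00 and 1.00, and at an unadjusted p under 0.05 the counts were 0, 0 and 2 (3.95%, 3.04% and 1.55% of all probes). The fitted change reached 1.4-fold upward for 1 probe at 12 h, 0 at 24 h and 2 at 72 h, where 6.72%, 3.43% and 3.68% of all probes did so, and downward for 0 at each time (6.19%, 3.35% and 2.25% of all probes). The median log2 difference of the 12 probes was 0.07, 0.18 and 0.25, against -0.006, -0.002 and -0.015 over all probes, and 7, 8 and 11 of the 12 were above 0. Only 5 of the 12 had all values in fed liver and in each fasted group. Of these 5, all arrays of the fasted group lay above all fed arrays for 0, 0 and 1, against 6.46%, 6.59% and 9.21% of all complete probes. They lay below them for 1, 0 and 0, against 6.21%, 4.74% and 9.67%.

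**Figure D3:**
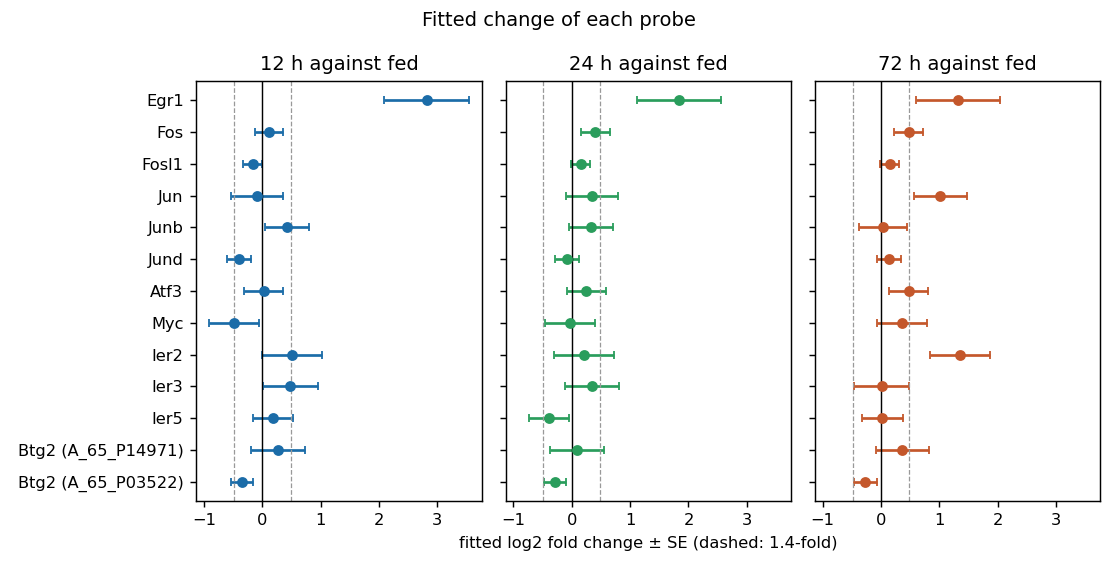
Fitted log2 fold change of each of the 13 probes against fed liver, with its standard error, after 12, 24 and 72 hours (3 panels, 3 arrays per group). Dashed lines mark 1.4-fold; Egr1 lies at 2.81, 1.84 and 1.32, Ier2 and Jun reach 1.35 and 1.02 at 72 h, and the remaining points lie between -0.48 and 0.50.

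Ier2, a short-lived nuclear regulator of transcription, and Jun, the core subunit of AP-1, were, of the 12 probes other than Egr1, those with the largest difference at 72 h. The log2 ratio of Ier2 was 0.39, 0.38 and 0.03 on the fed arrays and 1.60, 2.56 and 0.69 at 72 h. All 72 h arrays lay above all fed arrays, as for 9.21% of all complete probes. At 12 h the ratio was 1.51, 0.30 and 0.50 and at 24 h 1.04, 0.85 and -0.47, overlapping with fed liver at both times. The fitted difference of Ier2 at 72 h was 1.35 (SE 0.51, adjusted p = 1.00 in limma, unadjusted p = 0.0229, n = 3).

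Jun had log2 ratios of -0.18 and 0.07 on the 2 usable fed arrays, and of 1.02, 1.79 and 0.08 at 72 h. All 72 h arrays were above both, though replicate 3 only just. At 12 h its ratio was 0.04, -0.69 and 0.22, and at 24 h 0.65, 0.17 and 0.05. Its fitted difference at 72 h was 1.02 (SE 0.45, adjusted p = 1.00 in limma, unadjusted p = 0.0476). Jun and Ier2 followed the same order on the 72 h arrays, highest on replicate 2 and lowest on replicate 3. That order was also seen in the unnormalized signal, where replicates 1, 2 and 3 were 9.01, 11.8 and 3.56 times the negative-control median for Jun and 9.49, 14.2 and 3.23 times for Ier2. On the fed arrays that measure was 1.74 to 5.57 for Jun and 3.17 to 3.83 for Ier2, so that before normalization 72 h replicate 3 lay within the fed range for both genes. Without 72 h replicate 2 the differences were 0.61 for Jun and 0.88 for Ier2, and without replicate 3 they were 1.46 and 1.81. Within the quantification day of the 72 h arrays they were 0.89 and 1.41.

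**Figure D4:**
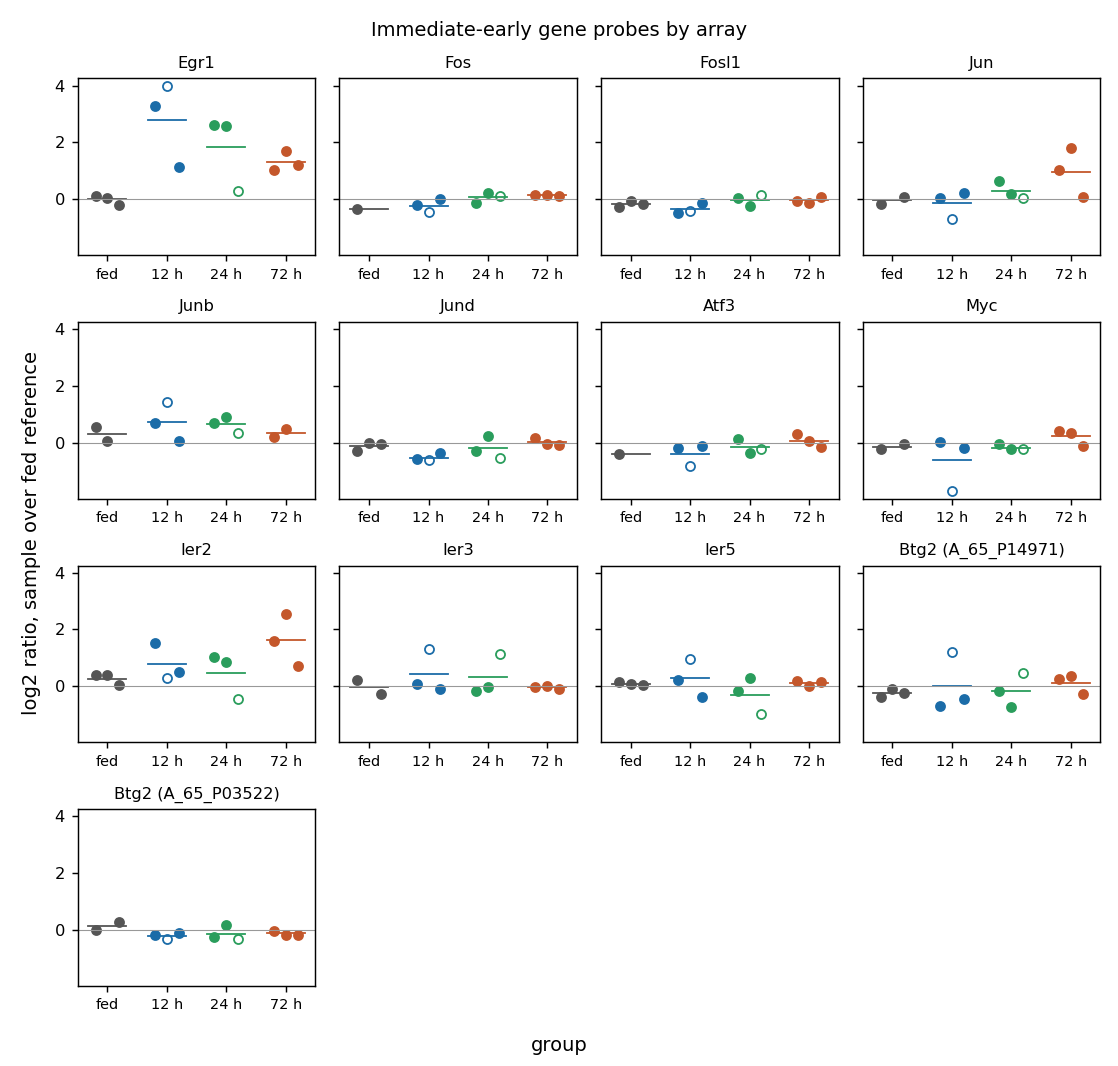
Log2 ratio, sample over fed reference, of all 13 probes on every array with a usable spot (points, open for the 2 low-signal arrays) with the group mean (line), for fed liver and 12, 24 and 72 hours of fasting on 1 common axis. Egr1 is above 0 on all 9 fasted arrays, Ier2 and Jun are highest on 72 h replicate 2 (2.56 and 1.79), and the open points hold several extremes, such as Myc at -1.70 on 12 h replicate 2.

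The other Jun proteins differed less than Jun at 72 h. Junb, which often acts against Jun in AP-1, had ratios of 0.56 and 0.05 on the 2 usable fed arrays, 0.70, 1.42 and 0.06 at 12 h, 0.68, 0.91 and 0.34 at 24 h, and 0.18 and 0.48 on the 2 usable 72 h arrays. Each fasted group overlapped with the fed arrays, and the fitted differences were 0.42 (SE 0.37), 0.34 (SE 0.37) and 0.03 (SE 0.41). Jund, the form that resting cells hold in quantity, gave a signal of 5.37 to 194 times the negative controls, with a median of 95.3 times. Its ratio was -0.32, -0.01 and -0.04 in fed liver and -0.60, -0.60 and -0.39 at 12 h. There all arrays lay below all fed arrays, as for 6.21% of all complete probes. The fitted difference of -0.41 (SE 0.20) gave an adjusted p of 0.957 in limma, and at 24 and 72 h it was -0.08 and 0.13.

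Of the Fos partners of AP-1, Fos itself, the classic partner of Jun, gave little signal. It stood at 0.929 to 2.05 times the negative-control median, above their 95th percentile on 9 of 12 arrays, and its spot was usable on 1 fed array only (-0.35). Its ratios were -0.21, -0.48 and -0.01 at 12 h, -0.14, 0.22 and 0.09 at 24 h, and 0.15, 0.13 and 0.10 at 72 h. The 72 h arrays lay close together (SD 0.03), but the comparison with fed liver rests on a single array, with fitted differences of 0.11, 0.40 and 0.47 (SE 0.24). Fosl1, another partner of Jun, gave a sample signal of 0.947 to 5.53 times the negative controls. It had values on all arrays and overlapped with fed liver at each time (fitted differences -0.17, 0.16 and 0.15, SE 0.16).

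Atf3, a stress-induced factor of the CREB family, and Myc, the growth regulator, did not pass either. Atf3 had 1 usable fed array (-0.41) and ranged from -0.84 to 0.30 on the fasted arrays, with fitted differences of 0.02, 0.25 and 0.47 (SE 0.34). Myc ranged from -1.70 on 12 h replicate 2 to 0.42 at 72 h, around -0.24 and -0.05 on the 2 usable fed arrays, with fitted differences of -0.48, -0.03 and 0.36 (SE 0.43). The lowest values of both genes were on 12 h replicate 2. There the sample signal was 0.975 times the negative-control median for Myc and 0.941 times for Atf3, not above the 95th percentile. Without that array the 12 h difference was 0.05 for Myc and 0.25 for Atf3.

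Among the remaining response genes, Ier3, a survival factor, had fitted differences of 0.48, 0.35 and 0.01 (SE 0.47), and its highest ratios were those of the low-signal arrays, 1.32 on 12 h replicate 2 and 1.14 on 24 h replicate 3, against -0.29 to 0.20 on all others. Ier5, a regulator of the heat-shock factor, lay from -0.999 to 0.956, both on low-signal arrays, and was not well above background on 24 h replicate 3. On neither of those arrays did its sample signal exceed the 95th percentile of the negative controls. The 2 probes of Btg2, an antiproliferative gene, disagreed in sign: A_65_P14971 differed from fed liver by 0.27, 0.09 and 0.36 (SE 0.46) and A_65_P03522 by -0.35, -0.28 and -0.27 (SE 0.19). On the 2 usable fed arrays the second gave 0.00 and 0.27, above all arrays of 12 h (-0.34 to -0.13) and 72 h (-0.18 to -0.04). Its signal was 0.935 to 2.66 times the negative controls, above their 95th percentile on 11 of 12 arrays, whereas the first exceeded it on all 12.

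Both low-signal arrays held many of the extreme values. On 12 h replicate 2 lay the value farthest from the other 2 arrays of its group for 9 of the 13 immediate-early probes, as for 84.9% of all probes, and on 24 h replicate 3 for 6 of the 13, against 69.7% of all. Without both arrays, 0 of the 12 other probes passed at any time, while 2.64%, 8.93% and 0.837% of all probes did. Whatever the p, the fitted change then reached 1.4-fold for 1, 2 and 2 of the 12. The share of all probes that did so without these arrays is not given here.

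From one fasting time to the next, 0 of the 12 probes passed, as did 0% of all probes in both steps, with a smallest adjusted p of 0.993 and 1.00 in limma. At an unadjusted p under 0.05 the counts were 0 and 1 (0.966% and 3.36% of all probes). Between 12 and 24 hours 1 probe was at least 1.4-fold lower (Ier5, -0.57, against 5.12% of all probes) and 0 were higher (3.34% of all). Between 24 and 72 hours Ier2 (1.15) and Jun (0.67) were at least 1.4-fold higher, against 4.72% of all probes, and 0 were lower (4.20% of all).

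The genes whose ratio followed that of Egr1 most closely across the arrays were, of 7147 bright named probes, Litaf (Pearson correlation 0.90 over 11 arrays), Adat1 (0.90, 11), Eef2 (0.89, 11), Phip (0.89, 12) and Gart (0.89, 12). Among the immediate-early probes the closest was Junb (0.82 over 10 arrays), and the rest ran from -0.52 to 0.54. All arrays share the reference pool and both low-signal arrays, the values include the step from fed to fasted, and these figures only rank likeness. Without the low-signal arrays Junb stood at 0.71 and Litaf at 0.93.

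The wider early-response class was covered by 32 probes for 27 of 44 genes listed. The number that passed was 0 at each time. At least 1.4-fold higher were 2, 7 and 12 probes, against 6.72%, 3.43% and 3.68% of all probes tested. Lower by as much were 3, 1 and 1, against 6.19%, 3.35% and 2.25% of all. The medians were -0.12, 0.06 and 0.27. Cebpb and Cebpd, transcription factors of the acute-phase response, had the largest 24 h differences among bright probes with complete values, 0.86 (SE 0.32) and 0.91 (SE 0.57, adjusted p = 1.00 in limma for both). The ratio of Cebpd was -0.12 to 0.03 in fed liver and 0.97 to 2.21 at 72 h, where the fitted difference was 1.48. The 72 h arrays thus lay above all fed arrays, as for 9.21% of all complete probes. Others were singled out after their values were seen. At 72 h Nfkbia, the inhibitor of NF-kappaB, differed by 1.05 (SE 0.26, unadjusted p = 0.00213, adjusted p = 1.00 in limma). The kinase Sgk1 differed by 1.20 (SE 0.55) and the phosphatase Dusp1 by 0.96 (SE 0.63). These were not the largest of the list. Mcl1 differed by 1.547 (SE 0.760) with probe A_65_P16780, the highest value, but by 0.308 with A_65_P17439. Klf9 differed by 1.059 and 0.650, Atf4 by 0.963 (SE 0.911) and Id2 by -0.751 (SE 0.638).

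The kinases and transcription factors upstream of immediate-early genes, with 41 probes for 24 of 32 genes, included 0 that passed at any time. They stayed near the median of all probes, at 0.03, 0.05 and -0.06. At least 1.4-fold higher were 1, 2 and 4 of them, against 6.72%, 3.43% and 3.68% of all probes. Lower by as much were 1, 0 and 0, against 6.19%, 3.35% and 2.25% of all. The kinase Braf differed at 24 h by 0.43 (SE 0.17), 0.28 (SE 0.19) and -0.09 (SE 0.32) with its 3 probes, of which the first was named by the rule. Partners and textbook targets of Egr1 (23 probes for 15 of 20 genes) likewise had 0 that passed, with medians of 0.08, -0.03 and -0.06. Of these probes 2, 2 and 1 were at least 1.4-fold higher and 3, 0 and 0 lower, beside the same shares of all probes. Sp1, which competes with Egr1 for GC-rich sites, differed by 0.55 and 0.52 with its 2 probes at 24 h (SE 0.37 and 0.21). Sod1, the cytosolic superoxide dismutase listed among the targets, differed by 0.26, -0.18 and 0.24 (SE 0.55).

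**Figure D5:**
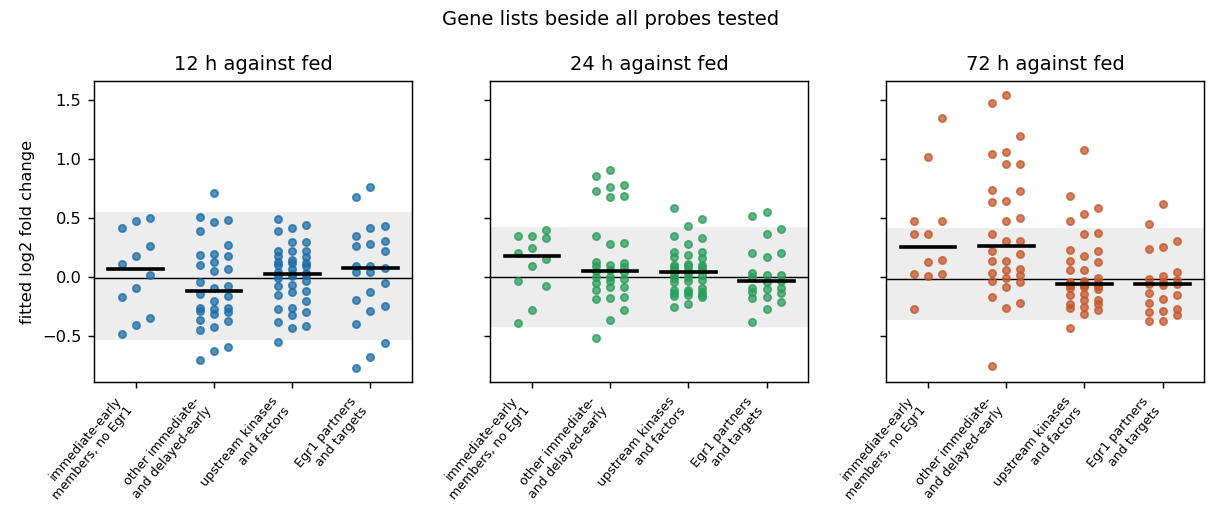
Fitted log2 fold change against fed liver of each tested probe in 4 gene groups (points, with the group median as a bar) after 12, 24 and 72 hours. The thin line is the median and the grey band the 5th to 95th percentile of all probes tested; the medians of the 12 immediate-early probes other than Egr1 and of the wider early-response class reach 0.25 and 0.27 at 72 h.

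Immediate-early genes are expressed in many cell types, and the markers of liver cells are therefore given beside these values. Of the macrophage and leukocyte markers (5 probes for 4 of 9 genes) 0 passed, and their median difference was -0.71, -0.31 and -0.36. At 12 h the differences of the 5 probes ran from -1.11 to 0.12. Their summed normalized signal was 6580 to 8140 in fed liver, 3040 to 5610 at 12 h, 4800 to 5940 at 24 h and 5880 to 6730 at 72 h. The stellate and fibroblast markers (6 probes for 5 of 7 genes) had medians of 0.11, 0.12 and -0.05, with sums of 2490 to 4240 in fed liver and 2410 to 4900 after fasting. The single endothelial probe, Kdr, differed by -0.60, -0.24 and -0.12 (SE 0.63), with 12 h ratios from -2.49 to 0.33. The single erythroid probe, Hba-a1, differed by -0.62, -0.51 and -0.38 (SE 0.29). Of the hepatocyte markers (4 probes for 3 of 7 genes) 0 passed, and the median was 0.02, -0.22 and -0.48. The sum was 161000 to 172000 in fed liver and 90300 to 130000 at 72 h. Trf differed at 72 h by -1.105 with probe A_65_P04625 and by 0.295 with A_65_P02848. Ttr, Apoa1 and Trf probe A_65_P04625 had the same highest signal, 428 times the negative controls. Saturated spots were not set aside, and their effect on these values was not tested. The part of other cell types in the immediate-early values was not tested.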

How the data were processed

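Per the file headers, the authors' scanner files hold intensities from Agilent Feature Extraction (per channel, the median of a spot and of the background around it) and a log10 ratio, which the software background-subtracted and dye-normalized. The deposited value table holds the same log10 ratios with the sign turned (largest difference 4.98e-08). Median signals were corrected by normexp (offset 50) over all spots; 1075 control and 91 retired spots were then removed, and signals were quantile-normalized over 24 channels. The 4 groups were fitted by lmFit and eBayes of limma 3.58.1 in R 4.3.3, in place of the Split-Factor ANOVA of the study, and the script was tested on simulated data. Tested probes had a value in both groups and, in Cy3, the software's well-above-background flag on every array of 1 or both.

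Listed genes named are the 2 per list with the largest 24 h difference among bright, complete probes, and as most like Egr1 the 5 highest correlations. A gene that this rule names is not reported here. Gene names are those of the files, updated through RefSeq symbols and synonyms. Members and lists were chosen with earlier results of these data known; the comparison with negative controls and its filter were added after seeing the values. The number of arrays limits the precision, and an array is a pool of 2 livers. Alternatives were another normalization or ratio, the sample channel alone, outliers kept, no filter, array weights, day or replicate blocks, and arrays left out.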

Additional observations from a re-analysis of the deposited data

How the results depend on the processing

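Egr1 was higher than fed liver in each fasted group under every alternative run. With 1 array left out at a time its log2 difference ranged from 2.23 to 3.65 at 12 h, 1.45 to 2.61 at 24 h and 1.13 to 1.46 at 72 h. Within the quantification day with 1 array per group it was 3.85 at 12 h and 0.16 at 24 h, moves larger than the SD between arrays pooled over the 4 groups (1.02), and with the scanner software's ratio it was 2.19 at 72 h, a move larger than the SD of the 72 h arrays (0.35).

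Of the 12 probes other than Egr1, 0 passed as reported and 0 to 0 with any 1 array left out. With array quality weights 1 passed at 24 h (Junb, 0.61) and 1 at 72 h (Ier2, 1.42), when 10.5% and 4.12% of all probes passed. With the quantification day as a block 2 passed at 12 h (Ier3 at 1.09 and Btg2 probe A_65_P14971 at 1.30) and 1 at 24 h (Ier3 at 0.96), when 22.8% and 11.8% of all probes did. Ier2 then lay below fed liver, at -0.33 and -0.62. Fed and 12 h or 24 h arrays share only the day of both low-signal arrays, so these differences lean on them.

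The number of these 12 probes past 1.4-fold, 1, 0 and 2 at 12, 24 and 72 h, was less stable. It was 3, 3 and 4 with the scanner software's ratio, 4 at 12 h with outlier spots kept, 1 at 24 h and 7 at 72 h with the sample channel alone, 3 at 24 h with array weights, 2 at 24 h without both low-signal arrays, 3 and 4 at 12 and 24 h with the day block, and 6 and 4 within the day of 1 array each. Leaving out 1 array gave 0 to 6, 0 to 2 and 2 to 6, with 6 at 12 h without 12 h replicate 3, 5 without fed replicate 1, and 6 at 72 h without 72 h replicate 3. The share of all probes past 1.4-fold is not given here for any of the alternatives, the replicate block below included. These counts can therefore not be set against all probes. The sign of an uncalled difference of a member changed in 37 of 394 cases, in 2 of 33 where it had reached 1.4-fold. These cases include settings that alter only which probes are tested, namely no filter and the negative-control filter. There no sign could change, so the share that changed is a low estimate.

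With the replicate number as a block the counts past 1.4-fold were 2, 1 and 4, 0 probes passed, and Egr1 kept its values. The animals differ between groups and the deviations of same-numbered arrays correlated from -0.65 to 0.63, so the numbers do not pair the samples. Limiting the probes to those above the negative-control spots, a choice made after seeing the data, changed no count of members passed or past 1.4-fold. It did change what was tested, at 12 h 17084 probes in place of 19840. Fos, Fosl1 and Atf3 were not above these spots on fed replicate 1 and 12 h replicate 2, and so dropped out of that comparison. With a reference within 1.51 times the negative controls, signal over background limits the size of any Egr1 ratio.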
